A study of Mus musculus with 2 samples.

Results

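Hematopoietic growth factors and their receptors were followed through the mouse dorsal meninges as a set of 9 genes, chosen by symbol out of the 32285 genes counted. Of these, 3 encode ligands (Csf1, Kitl and Flt3l) and 6 encode receptor chains (Csf1r, Csf2ra, Csf2rb, Csf3r, Flt3 and Kit), and all 9 had UMIs (unique molecular identifiers, each standing for 1 captured transcript) in both libraries. The Sham library was a pool of the meninges of 5 male C57BL/6 mice given a sham procedure, and the TBI library a pool of 5 male C57BL/6 mice given a mild closed-skull traumatic brain injury. Tissue was taken 1 week after the procedure from mice labelled as 10 weeks of age, the digested cells were sorted as live singlets with no marker for any cell type, and transcripts were counted at their 3′ ends. With 1 library per condition, a difference between Sham and TBI has no replicate behind it and was given no test. The 95% intervals below are exact Poisson or binomial intervals and cover counting error only, not the spread between mice.

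These factors keep blood-derived cells alive, make them divide and steer which lineage they take. CSF1, usually made by stromal cells, is read by CSF1R on macrophages and monocytes, and KIT ligand, on endothelial and other stromal cells, by KIT on mast cells, progenitors and some innate lymphoid cells. FLT3 ligand is read by FLT3 and maintains dendritic cells, GM-CSF by a pair of chains (CSF2RA, which binds it, and CSF2RB, the signalling chain shared with the receptors of IL-3 and IL-5), and G-CSF by CSF3R, above all on neutrophils. The meninges house many of the cells that carry these receptors, beside the fibroblasts and vessels that can supply the ligands.

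After filtering, 2043 Sham and 3773 TBI cells remained, with medians of 2764 and 2663 UMIs per cell and totals of 7866611 and 13940740 UMIs. Of the kept barcodes, 14 occurred in both libraries. The cells were divided into 24 clusters without using the 9 genes, and 23 of them were named from marker lists that contained none of the 9, as fibroblast-like, macrophage-like and so on. Col1a1 stood at 3423 and 4404 CPM (UMIs per 1000000 UMIs of the class) in the Sham and TBI fibroblast-like cells against 11.3 and 42.7 CPM elsewhere, and C1qa at 6477 and 6531 CPM in macrophage-like cells against 87.6 and 105 CPM. The libraries differed in their make-up, since fibroblast-like cells were 6.36% of Sham and 20.5% of TBI cells, macrophage-like cells 16.1% and 18.8%, B-like cells 16.3% and 7.42%, and dendritic-like cells 7.0% and 4.90%. One named cluster of 254 cells had markers of type 2 innate lymphoid or Th2 cells. It was shallow at a median of 782 UMIs, so it was kept apart as the shallow ILC2-or-Th2-like cluster. It also held a subset led by B cell genes, so its levels below come from a mixture. A finer clustering (resolution 1.6) had a shallow B-like cluster of 113 cells and a shallow ILC2-or-Th2-like one of 162 cells. A cluster of 200 cells led by Gm46224 and F630028O10Rik had a median of 983 UMIs and too few markers, and is called the unnamed cluster.

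The promoters of 3 members are shown, all of them with a motif marked below. Csf3r had its UMIs mostly in macrophage-like and neutrophil-like cells, and Csf2ra in macrophage-like and dendritic-like cells. Kitl had its UMIs mainly in endothelial-like cells. Each run is the 250 bases before the RefSeq start of the gene, read 5′ to 3′ on the gene's own strand of GRCm38.p6, at chr4:126024409-126024658 (plus strand), chr19:61228419-61228668 (minus strand) and chr10:100015571-100015820 (plus strand). Capitals mark the letters GAGGAA, the core known to be bound by the myeloid factor PU.1, and TATAAA, the letters of a TATA box.
Csf3r: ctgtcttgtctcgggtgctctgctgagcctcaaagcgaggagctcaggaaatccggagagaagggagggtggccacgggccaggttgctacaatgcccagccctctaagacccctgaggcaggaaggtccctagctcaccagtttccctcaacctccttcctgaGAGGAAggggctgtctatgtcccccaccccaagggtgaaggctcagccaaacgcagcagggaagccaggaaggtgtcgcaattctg
Csf2ra: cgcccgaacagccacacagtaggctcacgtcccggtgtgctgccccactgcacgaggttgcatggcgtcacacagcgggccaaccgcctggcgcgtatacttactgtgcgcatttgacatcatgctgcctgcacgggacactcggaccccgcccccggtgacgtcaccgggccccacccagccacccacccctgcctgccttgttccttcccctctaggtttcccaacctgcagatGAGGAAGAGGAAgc
Kitl: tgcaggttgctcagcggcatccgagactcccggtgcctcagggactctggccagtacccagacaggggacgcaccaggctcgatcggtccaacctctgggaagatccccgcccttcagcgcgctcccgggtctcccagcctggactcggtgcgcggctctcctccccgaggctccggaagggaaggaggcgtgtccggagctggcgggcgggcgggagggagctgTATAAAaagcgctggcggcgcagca

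Both strands were searched in 7 members (TTCCTC and TTTATA being the same letters on the other strand). Csf2rb had no RefSeq promoter available, and Csf1r, on chromosome 18, was left out of the search. GAGGAA was found in this window of 3 of the 7 members searched (Csf3r, Csf2ra and Kit). It was found in 23.1% of the 27025 mouse promoters of the same length, which were not limited by chromosome. In Csf3r it began 86 bases before the RefSeq start, and in Csf2ra there were 2 adjoining copies that began 14 and 8 bases before it. TATAAA was found in 1 of the 7, Kitl, 25 bases before its RefSeq start, and in 13% of all promoters. Csf1, Flt3 and Flt3l had neither motif, and the 2 motifs shared no bases in these windows. The RefSeq starts of Csf3r, Csf2ra, Kit and Kitl lie inside the GENCODE spans of these genes, so part of each window does too. The GAGGAA of Csf3r, the TATAAA of Kitl and part of the GAGGAA copies of Csf2ra lay in those spans, and that of Kit did not. A match of 6 letters is a description of the sequence and shows neither binding nor use.

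**Figure D1:**
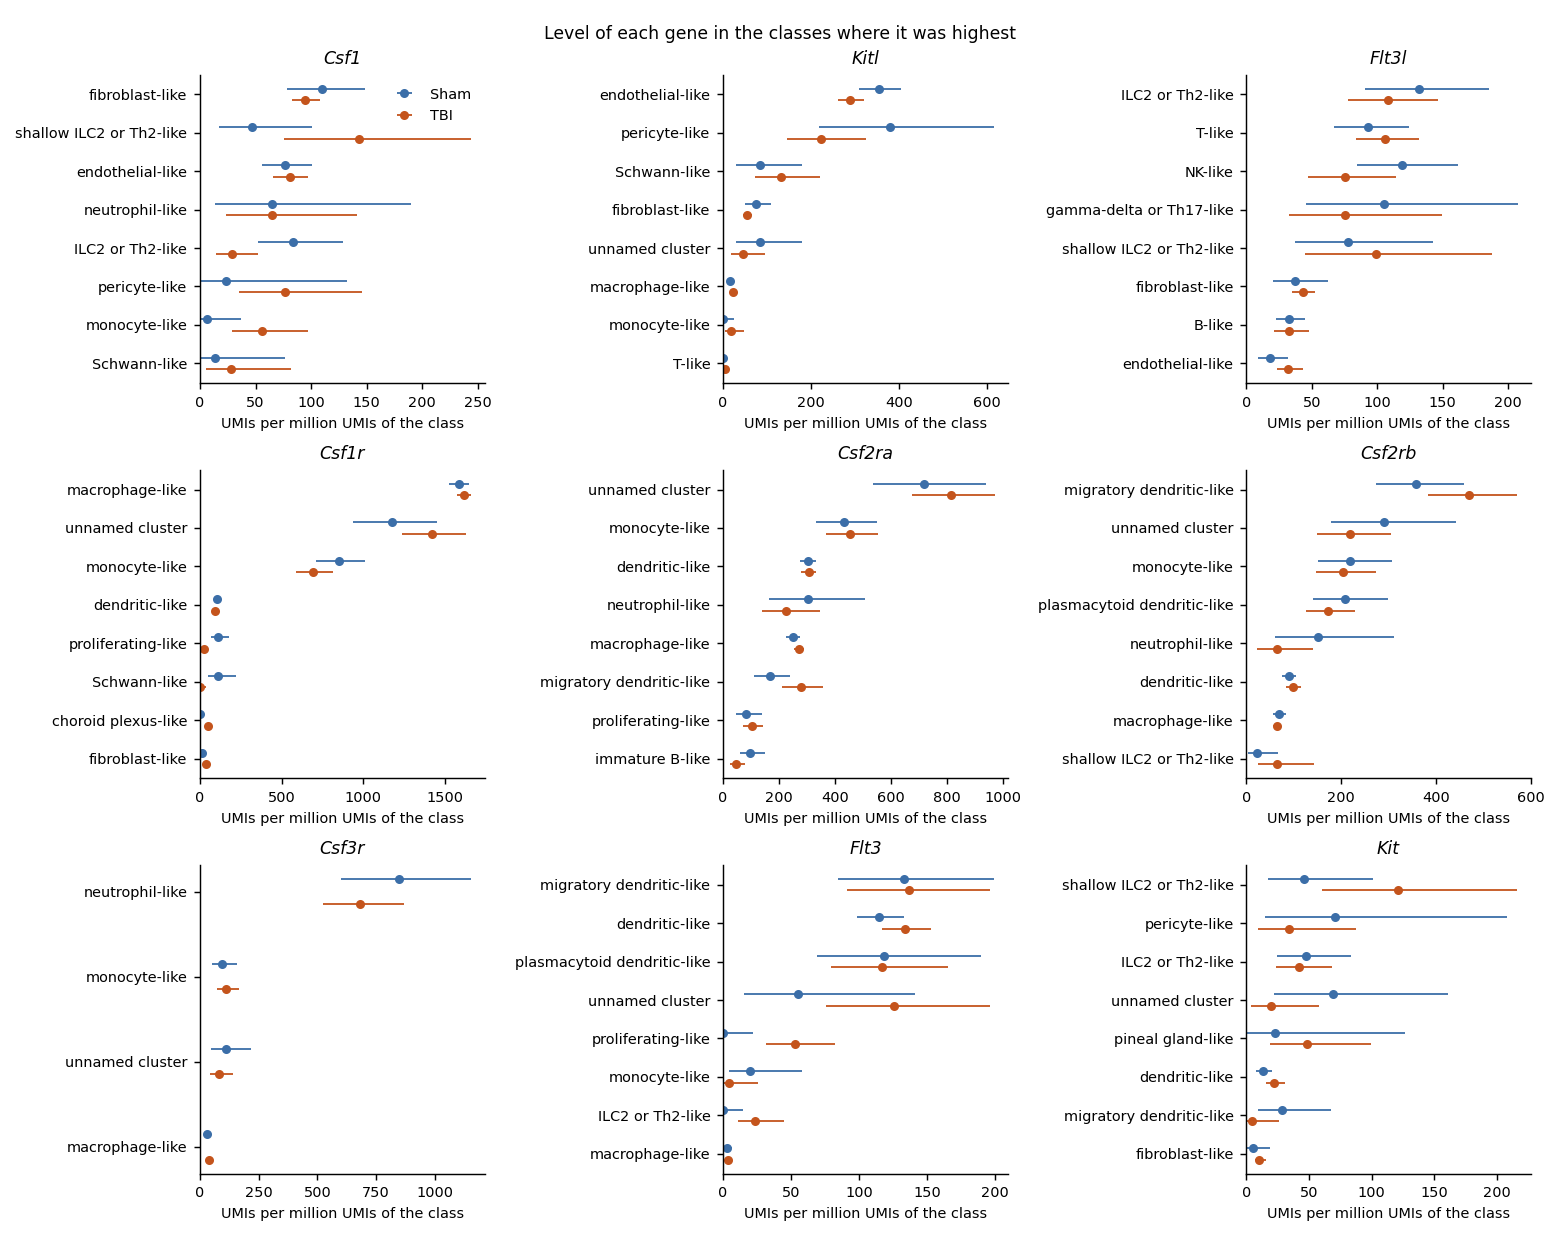
Level of each of the 9 genes (horizontal axis, UMIs per 1000000 UMIs of the class, linear) in up to 8 classes with the highest mean level and more than 3 UMIs, in the Sham library (blue) and the TBI library (orange). Points are single libraries and bars are exact 95% Poisson intervals for counting error. Csf1r was highest in macrophage-like cells (1584 and 1616), Csf3r in neutrophil-like cells (846 and 680) and Kitl in endothelial-like and pericyte-like cells.

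Among the ligands, Csf1 (chr3:107741048-107760469, minus strand, GENCODE vM21 on GRCm38), the factor that macrophages depend on, came mainly from stromal cells. Fibroblast-like cells had 41 Csf1 UMIs in Sham and 216 in TBI, or 109 CPM (95% interval 78.5 to 148) and 94.9 CPM (82.6 to 108). Endothelial-like cells had 76.1 CPM (55.9 to 101; 47 UMIs) and 80.6 CPM (65.9 to 97.6; 105 UMIs), and both values lay below the fibroblast-like ones. Classes are said to overlap here and below when the ranges of their 2 library values meet. B-like cells, as a background, had 1 and 3 UMIs in 333 and 280 cells. Together fibroblast-like and endothelial-like cells held 29.7% and 34.1% of the Csf1 UMIs of Sham and 51.3% and 24.9% of those of TBI.

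The fibroblast-like level in Sham leaned on 1 cell. That cell held 16 of the 41 UMIs, and no other Sham cell of the class had more than 3. It was also the only Sham cell in the subcluster led by Bglap2 and Mmp13, and had 859 UMIs of Spp1 and 122 of Col1a1 among its 16558. These are genes of bone-forming cells, and the cell was singled out after its values were seen. Without the highest cell of each library the levels were 69.8 CPM in Sham and 93.2 CPM in TBI, so the log2 ratio of TBI over Sham changed from -0.22 (95% interval -0.69 to 0.31) to 0.39 (-0.18 to 1.08), and the direction was not settled. The 69.8 CPM also lay under the 76.1 CPM of Sham endothelial-like cells, so the order of these classes in Sham rested on that cell. Among other fibroblast-like subclusters, TBI levels ran from 58.6 CPM (36.7 to 88.7) in the one led by Ptgds to 161 CPM (115 to 220) in the one led by Col6a5 and Epha3, and the Sham values there rested on 4 and 2 UMIs.

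Csf1 also appeared outside the stroma. In the deeper ILC2-or-Th2-like cluster, led by Arg1 and Gata3, 21 Sham UMIs in 16 of 70 cells gave 84.1 CPM (52.0 to 128), and 11 TBI UMIs in 10 of 106 cells gave 29.0 CPM (14.5 to 51.8). Among cells with at least 1000 UMIs, each thinned to 1000, the expected share with a Csf1 UMI was 8.99% in Sham and 2.86% in TBI. Thinned shares below also leave out cells with fewer UMIs. The log2 ratio was -1.51 (-2.74 to -0.42). The shallow ILC2-or-Th2-like cluster stood the other way, at 46.4 CPM from 6 UMIs in Sham and 143 CPM from 13 UMIs in TBI, 7 of which were in 1 cell. Macrophage-like cells, the main carriers of the receptor, had 2 UMIs in 329 Sham cells and 24 in 708 TBI cells (1.31 and 6.82 CPM, log2 ratio 2.09, 0.37 to 5.51). The 24 UMIs were spread over 21 cells with at most 2 per cell, 22 of them in cells not predicted to be doublets, and even the TBI level was far under that of the stromal classes. B-like cells had Csf1 at 0.898 CPM in Sham and 3.75 CPM in TBI. Outside fibroblast-like cells, Col1a1 stood at 11.3 and 42.7 CPM and Dcn at 8.54 and 51.7 CPM. Whether stray stromal transcripts gave the macrophage-like Csf1 UMIs was not tested.

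Kitl (chr10:100015630-100100416, plus strand), the ligand of KIT, was a gene of vessels. Endothelial-like cells had 219 UMIs in Sham and 376 in TBI, which gave 355 CPM (309 to 405) and 289 CPM (260 to 319), and held 71.6% and 57.8% of all Kitl UMIs. Pericyte-like cells had 379 CPM (217 to 616) and 222 CPM (145 to 325), but 11 of their 16 Sham UMIs were in 1 cell. A Kitl UMI was found in 41.0% of Sham and 37.5% of TBI endothelial-like cells (30.1% and 22.5% when thinned to 1000 UMIs), against 0 of 333 and 0 of 280 B-like cells, which at a floor of 3 counts allows a share of cells with a UMI of up to 0.901% and 1.07%. The median depth was 1804 and 1970.5 UMIs in the endothelial-like cells and 3249 and 2713.5 in the B-like cells. In order of level, endothelial-like and pericyte-like cells overlapped, and both lay above Schwann-like (82.7 and 131 CPM) and fibroblast-like cells (74.7 and 55.3 CPM), whose library values did not overlap each other.

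The vessel types differed in Kitl. The cluster with capillary genes (Gpihbp1, Rbp7, Kdr) had 415 CPM (357 to 479) in Sham and 338 CPM (299 to 381) in TBI, and the cluster led by Vwf and Slc38a5 had 198 CPM (137 to 277) and 211 CPM (173 to 255). Within the endothelial-like class, the subcluster led by the arterial genes Gkn3 and Gja5 had 341 CPM (208 to 527) and 478 CPM (359 to 623). The subcluster led by Serpina3g and Gprc5c, with the venous adhesion gene Selp, had the lowest values, 145 CPM (77.3 to 248) and 208 CPM (162 to 264). The log2 ratio of TBI over Sham in all endothelial-like cells was -0.30 (-0.54 to -0.05), and its 5 subclusters did not share 1 direction: 3 had a lower value in TBI, the arterial-type and Selp-bearing ones had a higher one, and in each the Sham and TBI intervals overlapped. In fibroblast-like cells, Kitl was at 120 and 87.0 CPM in the subcluster led by Penk and at 17.3 and 13.3 CPM (1 and 5 UMIs) in the one led by Ptgds.

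Kitl was also present at a low level in macrophage-like cells, with 25 UMIs in Sham (16.4 CPM, 10.6 to 24.2) and 81 in TBI (23.0 CPM, 18.3 to 28.6). It was found in 5.78% and 9.04% of these cells, or 1.73% and 2.34% when thinned, and 24 and 70 of the UMIs were in cells not predicted to be doublets. The subcluster led by Cd93 and Ahr carried 40 of the 81 TBI UMIs, at 35.2 CPM (25.2 to 48.0), against 3 UMIs and 10.6 CPM (2.18 to 31.0) in Sham. The subcluster led by Lyve1 had 34.2 CPM (8 UMIs) and 47.4 CPM (20 UMIs).

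Flt3l (chr7:45129788-45136432, minus strand), the ligand of FLT3, had its highest levels in lymphoid classes, unlike Csf1 and Kitl. T-like cells had 44 UMIs in Sham and 80 in TBI, or 92.6 CPM (67.3 to 124) and 106 CPM (83.9 to 132), with a log2 ratio of 0.18 (-0.36 to 0.76). The deeper ILC2-or-Th2-like cluster had 132 and 108 CPM, NK-like cells 119 and 75.7 CPM, and the class with gamma-delta or Th17 markers 105 and 75.7 CPM. Along the order of levels, T-like cells overlapped NK-like cells, and so on through the gamma-delta or Th17 class to the shallow ILC2-or-Th2-like cluster. Fibroblast-like cells followed at 37.4 and 43.0 CPM and B-like cells at 32.3 and 32.5 CPM, without overlap. Its UMIs were divided over many classes, with 17.8% and 18.4% of them in T-like cells and 5.67% and 22.6% in fibroblast-like cells. Among vessels the cluster led by Vwf had 46.6 and 51.4 CPM, above the capillary-type cluster at 6.73 and 20.1 CPM. Together these clusters had only 11 Flt3l UMIs in Sham and 42 in TBI. Gm45713, a gene on the same strand, overlaps Flt3l in the annotation, so reads in the overlap may have been counted for either gene or for none.

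**Figure D2:**
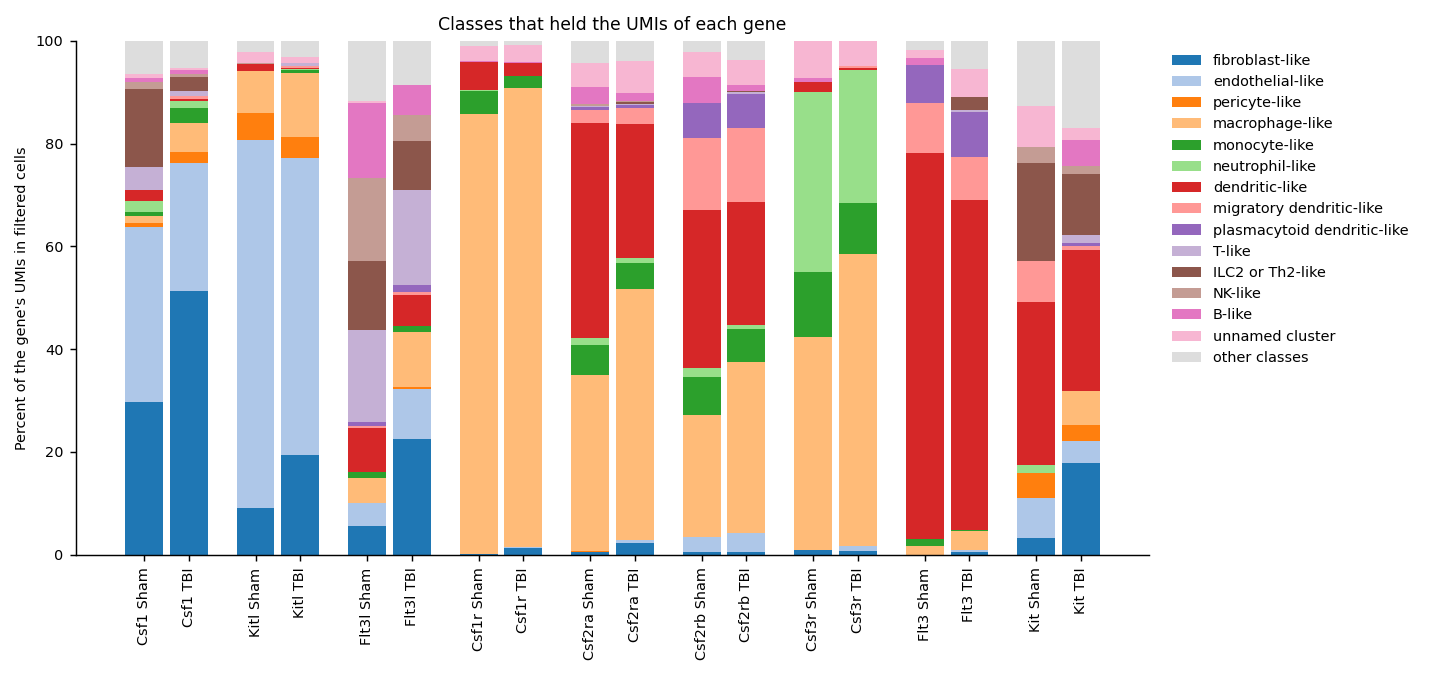
Share of each gene's UMIs (vertical axis, percent of its UMIs in all filtered cells of that library) held by each class, as stacked bars for Sham and TBI. Macrophage-like cells held 85.6% and 89.3% of Csf1r, endothelial-like cells 71.6% and 57.8% of Kitl, and dendritic-like cells 75.1% and 64.1% of Flt3, while Flt3l was divided over many classes.

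Among the receptors, Csf1r (chromosome 18, 61100598 to 61132149, plus strand) marked the macrophage-like cells. They held 2420 of 2826 Sham UMIs and 5690 of 6372 TBI UMIs, at 1584 CPM (1522 to 1648) and 1616 CPM (1575 to 1659). The log2 ratio was 0.03 (-0.04 to 0.10). The unnamed cluster had 1173 and 1422 CPM, monocyte-like cells 848 and 694 CPM, and dendritic-like cells 102 and 91.8 CPM, and no pair of neighbours among these 4 classes overlapped. A Csf1r UMI was found in 77.8% and 89.1% of macrophage-like cells (70.1% and 74.7% when thinned), against 0.601% and 1.07% of B-like cells. The median depth of macrophage-like cells was itself lower in Sham, 2988 against 4576.5 UMIs.

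Csf1r differed more between kinds of macrophage than between libraries. The cluster led by Cd209f and Ccl8, with Pf4 and Folr2, had 2126 CPM in Sham and 2153 CPM in TBI, and the cluster with Cx3cr1, Trem2 and Fcgr4 had 1361 and 1437 CPM. In finer subclusters the highest was the one led by Lyve1, with 2844 CPM (2632 to 3068) from 36 Sham cells and 2681 CPM (2527 to 2842) from 69 TBI cells, and a Csf1r UMI in every one of these cells. The one led by Cd93 and Ahr had 1741 and 1774 CPM, and the one led by Sirpb1a and Itgax 1211 and 1226 CPM. The lowest was a shallow one led by hemoglobin genes, at 589 and 802 CPM. In all 6 subclusters the Sham and TBI intervals overlapped.

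Some Csf1r UMIs lay where the gene is not known to act. TBI fibroblast-like cells had 87 UMIs against 4 in Sham (38.2 and 10.7 CPM, log2 ratio 1.68, 0.43 to 3.75), and TBI choroid plexus-like cells had 40 against 0, at least 5.35-fold higher than the floor of 3 UMIs in Sham. The 87 UMIs were in 17 of 772 cells and the 40 in 7 of 137 cells. With predicted doublets left out, 13 and 2 UMIs were left in these TBI classes, and the 8 UMIs of Sham Schwann-like cells fell to 0. The fibroblast-like subcluster that held 81 of the 87 UMIs had Fcer1g, Tyrobp and Cd74 among its 10 leading genes, which are genes of immune cells. In proliferating cells, 19 Sham UMIs were all in 3 of 22 cells and 8 TBI UMIs in 4 of 47 cells (113 and 22.1 CPM), so that difference rested on a few cells whose lineage the class does not fix.

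**Figure D3:**
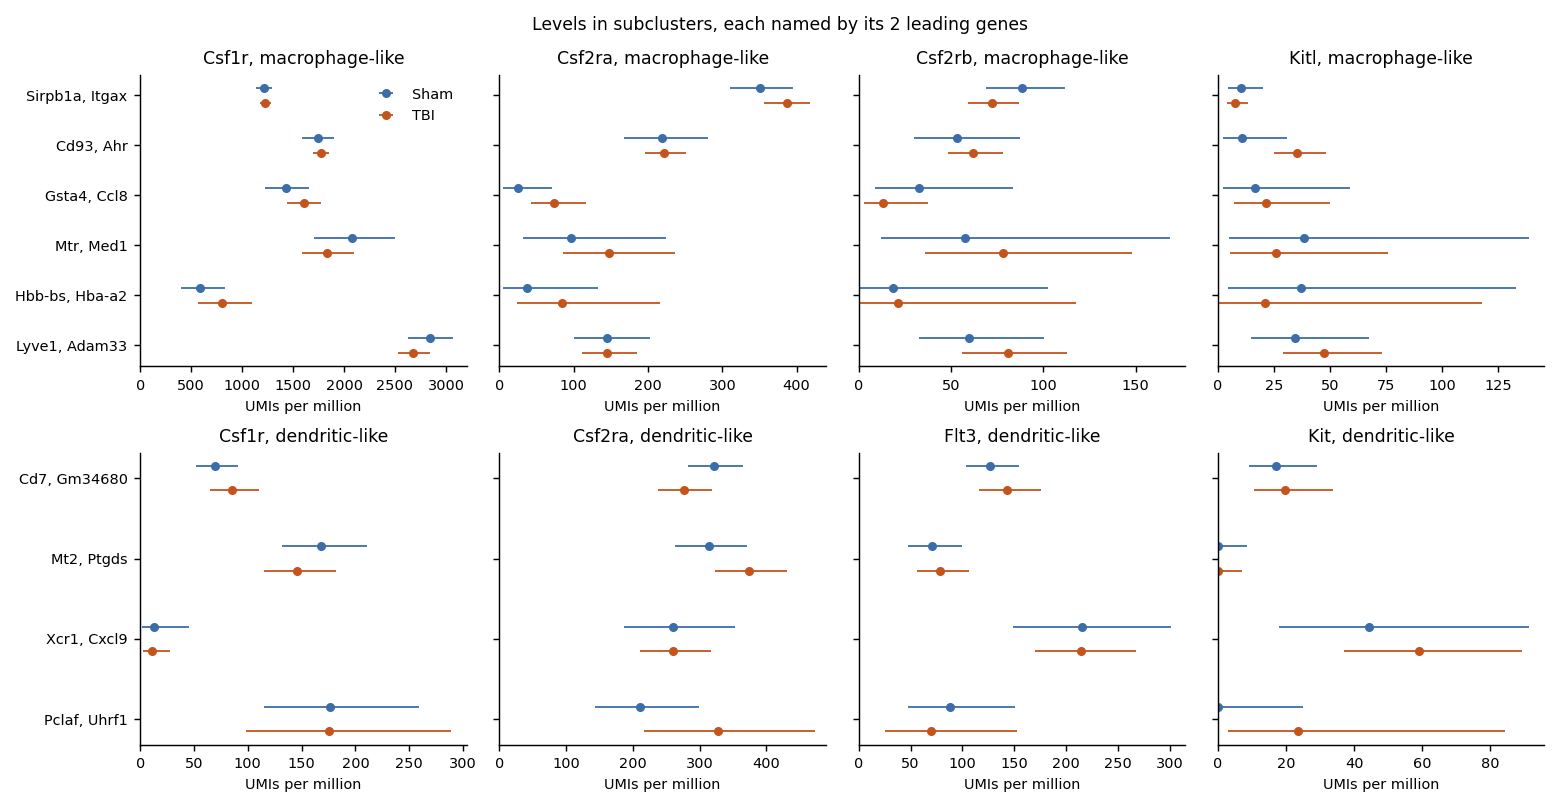
Levels of 4 genes in the 6 macrophage-like subclusters (top row) and of 4 genes in the 4 dendritic-like subclusters with at least 14 cells (bottom row), each subcluster written as its 2 leading genes; the horizontal axis gives UMIs per 1000000 UMIs of the subcluster, blue is Sham, orange is TBI and bars are exact 95% Poisson intervals. The subcluster led by Lyve1 was highest for Csf1r (2844 and 2681), and that led by Xcr1 was lowest for Csf1r (12.7 and 10.7) and highest for Flt3 (215 and 215) and Kit (44.3 and 59.0).

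Csf2ra (chr19:61223957-61228429, minus strand), the chain that binds GM-CSF, was spread over the myeloid classes. Dendritic-like cells had 464 and 510 UMIs, or 304 CPM (277 to 332) in Sham and 306 CPM (280 to 334) in TBI, and macrophage-like cells 380 and 957 UMIs, or 249 CPM (224 to 275) and 272 CPM (255 to 290). The log2 ratios were 0.01 (-0.17 to 0.20) and 0.13 (-0.04 to 0.30). The highest level was in the unnamed cluster (718 and 814 CPM), followed by monocyte-like cells (431 and 454 CPM), with no overlap between them or with dendritic-like cells. Among macrophage-like cells its order was not that of Csf1r: it had 351 and 387 CPM in the subcluster led by Sirpb1a and Itgax, 145 and 145 CPM in the one led by Lyve1, and 24.4 and 72.9 CPM (3 and 17 UMIs) in the one led by Gsta4 and Ccl8. Migratory dendritic-like cells had 29 UMIs in 21 Sham cells and 59 in 29 TBI cells, 167 CPM (112 to 240) and 278 CPM (211 to 358), with a log2 ratio of 0.72 (0.06 to 1.42). Immature B-like cells had 97.9 CPM (20 UMIs) in Sham and 46.0 CPM (13 UMIs) in TBI, with a log2 ratio of -1.07 (-2.22 to -0.01).

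Csf2rb (chr15:78325752-78353847, plus strand), the shared signalling chain, has a near-identical neighbour in the mouse, Csf2rb2, which serves IL-3 alone. Reads that fit both cannot be assigned, so the levels of both are uncertain. Csf2rb was highest in migratory dendritic-like cells, with 62 UMIs in 21 Sham cells (358 CPM, 274 to 459) and 100 UMIs in 29 TBI cells (470 CPM, 383 to 572). The unnamed cluster had 290 and 218 CPM, monocyte-like cells 219 and 204 CPM, and plasmacytoid dendritic-like cells 209 and 173 CPM, and these 3 overlapped along that order. Dendritic-like cells had 89.6 and 99.0 CPM, with a log2 ratio of 0.14 (-0.19 to 0.48), and macrophage-like cells 69.4 and 65.3 CPM. Endothelial-like cells had 21.1 CPM (11.2 to 36.0) and 19.2 CPM (12.4 to 28.3), in 3.55% and 3.82% of cells, against 5.71% and 2.50% of B-like cells. T-like cells had 0 and 2 UMIs, fibroblast-like cells 2 and 4, and NK-like cells none in either library.

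The 2 chains of the GM-CSF receptor did not always occur together. In dendritic-like cells both were detected in 74 of 143 Sham and 88 of 185 TBI cells, and Csf2ra alone in 51 and 63. In plasmacytoid dendritic-like cells Csf2rb was detected in 17 of 17 Sham and 31 of 40 TBI cells, but Csf2ra in 4 and 10, although these cells were deep at medians of 8416 and 6313 UMIs. Csf2rb2 stood at 334 CPM (246 to 443) and 177 CPM (130 to 235) in the same cells and Il3ra, the IL-3 binding chain, at 34.8 and 30.1 CPM from 5 and 8 UMIs. Detection of 1 chain in a cell also depends on the depth of that cell, so these counts describe the captured UMIs.

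A few barcodes bore Csf2rb together with genes shared by basophils and mast cells. Of the kept barcodes, 6 (1 Sham and 5 TBI) had at least 3 of the genes Cpa3, Fcer1a, Ms4a2, Hdc and Gata2 and no UMI of the mast cell proteases Tpsb2, Cma1 and Mcpt4. All were in the monocyte-like cluster except 1 TBI barcode in the proliferating class. Csf2rb was detected in the Sham barcode (14 UMIs) and in 3 of the 5 TBI barcodes (17 UMIs together), and none of the 6 had a Kit UMI. The Sham barcode alone gave 14 of the 33 Csf2rb UMIs of Sham monocyte-like cells. The 5 TBI barcodes had 13 Csf1 UMIs between them. Those in the monocyte-like cluster had 2, 1, 7 and 1 of the 12 Csf1 UMIs of TBI monocyte-like cells. The TBI barcode in the proliferating class had the 2 Csf1 UMIs of that class. The Sham barcode had the only Csf1 UMI of Sham monocyte-like cells.

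Csf3r (chr4:126024550-126044440, plus strand), the receptor of G-CSF, was the most concentrated in level. Neutrophil-like cells had 39 UMIs in 16 Sham cells and 63 in 26 TBI cells, or 846 CPM (601 to 1156) and 680 CPM (522 to 870), and a log2 ratio of -0.32 (-0.91 to 0.30). Monocyte-like cells had 92.8 and 111 CPM and the unnamed cluster 110 and 79.4 CPM, which overlapped, and macrophage-like cells 30.1 CPM (46 UMIs) and 39.5 CPM (139 UMIs). Macrophage-like cells still held 41.4% of its Sham and 57.0% of its TBI UMIs, because they were so many more than the 16 and 26 neutrophil-like cells. In every other class the gene had at most 2 UMIs in a library, and T-like cells had 0 in both.

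Flt3 (chr5:147330741-147400489, minus strand), the receptor that maintains dendritic cells, was highest in the 3 dendritic classes and the unnamed cluster. Dendritic-like cells had 175 and 223 UMIs, or 114 CPM (98.1 to 133) in Sham and 134 CPM (117 to 153) in TBI, with a log2 ratio of 0.22 (-0.07 to 0.52). Migratory dendritic-like cells had 133 and 136 CPM and plasmacytoid dendritic-like cells 118 and 117 CPM, and the 3 classes overlapped. Macrophage-like cells had 2.62 and 3.69 CPM, 4 and 13 UMIs. Flt3 was detected in 57.3% and 54.1% of dendritic-like cells, 10.9% and 12.1% when thinned to 1000 UMIs, against 0.901% and 0% of B-like cells. The unnamed cluster came next, with 4 Sham UMIs at 55.2 CPM (15.0 to 141) and 19 TBI UMIs at 126 CPM (75.7 to 196), and it overlapped the plasmacytoid dendritic-like cells. In other classes, 19 UMIs were found in 7 of 47 TBI proliferating cells and 0 in 22 Sham cells, where the floor of 3 counts stands at 17.9 CPM. In the deeper ILC2-or-Th2-like cluster 9 TBI UMIs were all in 2 of 106 cells.

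The subclusters of the dendritic-like class differed in Flt3 and Csf1r. The subcluster led by Xcr1, the chemokine receptor of type 1 conventional dendritic cells, had the highest Flt3, 215 CPM in Sham (149 to 301) and 215 CPM in TBI (170 to 267), and the lowest Csf1r, 12.7 CPM (2 UMIs) and 10.7 CPM (4 UMIs). The subcluster with Fcrls, Ear2 and C1qa among its leading genes had 70.4 and 78.6 CPM of Flt3 and 168 and 146 CPM of Csf1r, and the largest one, led by Cd7, lay between. In the class as a whole, the receptors were not exclusive of each other: both were detected in 32 Sham and 36 TBI cells, Flt3 alone in 50 and 64, and Csf1r alone in 29 and 32. Predicted doublets, 12 of the 143 Sham and 8 of the 185 TBI cells of the class, were left in these counts. Migratory dendritic-like cells had Flt3 in 15 of 21 and 16 of 29 cells and Csf1r in 0 and 1. The subclusters were drawn from the genes of these same cells, and their differences are given as a description.

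Kit (chr5:75574916-75656722, plus strand), the receptor known from mast cells and progenitors, was sparse, with 63 UMIs in 48 Sham cells (2.35%) and 135 UMIs in 106 TBI cells (2.81%), and no cell with more than 5. Over all filtered cells it stood at 8.01 and 9.68 CPM, with a log2 ratio of 0.27 (-0.17 to 0.73). Dendritic-like cells held the largest part, 20 and 37 UMIs (13.1 CPM, 7.99 to 20.2, and 22.2 CPM, 15.6 to 30.6). The deeper ILC2-or-Th2-like cluster had 12 and 16 UMIs (48.0 CPM, 24.8 to 83.9, and 42.1 CPM, 24.1 to 68.4). By the mean CPM of the 2 libraries the shallow ILC2-or-Th2-like cluster came first, at 46.4 and 121 CPM (6 and 11 UMIs). Of its 11 TBI UMIs, 3 were in 1 barcode and 1 in another that also had UMIs of mast cell proteases. Pericyte-like cells followed at 71.1 and 34.1 CPM (3 and 4 UMIs), and these classes overlapped along the order. In the dendritic-like class the Xcr1 subcluster had 44.3 CPM (7 UMIs) and 59.0 CPM (22 UMIs), and the Fcrls and Ear2 subcluster had 0 UMIs in 47 Sham and 68 TBI cells. Of the dendritic-like cells with Kit, 14 of 16 in Sham and 22 of 29 in TBI also had Flt3. Fibroblast-like cells had 2 Kit UMIs in Sham and 24 in TBI, and 16 of the 24 were in the subcluster led by Ptgds, at 42.6 CPM (24.3 to 69.2), while the 37 Sham cells of that subcluster had none.

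Barcodes with mast cell genes carried a small part of the Kit UMIs. At least 3 such genes with a protease UMI were found in 3 Sham and 8 TBI barcodes, which carried 1 and 11 Kit UMIs. One TBI barcode, placed in the macrophage-like class, had 274 Mcpt4, 189 Tpsb2, 120 Cma1 and 69 Cpa3 UMIs, 3 Kit UMIs and no Csf1r UMI. Another, in the shallow ILC2-or-Th2-like cluster, had 84 Mcpt4 UMIs and 1 Kit UMI, and a further TBI barcode of that cluster had 9 Mcpt4 and 3 Kit UMIs. The others had between 1 and 19 protease UMIs.

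In 5 classes and over all filtered cells, the members were counted beside all other genes by the size of their Sham to TBI difference. Counting a gene as changed when it had at least 20 UMIs in the class over both libraries and differed by 2-fold or more, 0 of 4 members changed in endothelial-like cells (4.27% of 9002 genes did), 0 of 6 in dendritic-like cells (3.55% of 8343) and 0 of 1 in T-like cells (5.09% of 6363). In macrophage-like cells 1 of 7 did, Csf1 (3.68% of 9723), and in fibroblast-like cells 1 of 6, Csf1r (8.09% of 10565), whose UMIs lay mostly in predicted doublets. Over all filtered cells it was 0 of 9 (11.2% of 14782). With so few members in a class, nothing can be read from these counts against the background shares. These counts leave out all other classes, where Csf1, Csf1r, Csf2ra and Flt3 also stood 2-fold or more apart. The share of all genes past 2-fold was not computed for those classes, so nothing can be read from these ratios against a background. The log2 ratio was -1.51 (-2.74 to -0.42) for Csf1 in the deeper ILC2-or-Th2-like cluster, -2.30 (-3.76 to -1.10) for Csf1r in proliferating cells, and -1.07 (-2.22 to -0.01) for Csf2ra in immature B-like cells (20 and 13 UMIs). For Csf1r in choroid plexus-like cells it had the bound given above, and for Flt3 in the unnamed cluster it was 1.05 (-0.40 to 3.20), an interval that included 0. The median log2 ratio over all genes was between -0.03 and 0.05 within these 5 classes and 0.10 over all filtered cells.

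**Figure D4:**
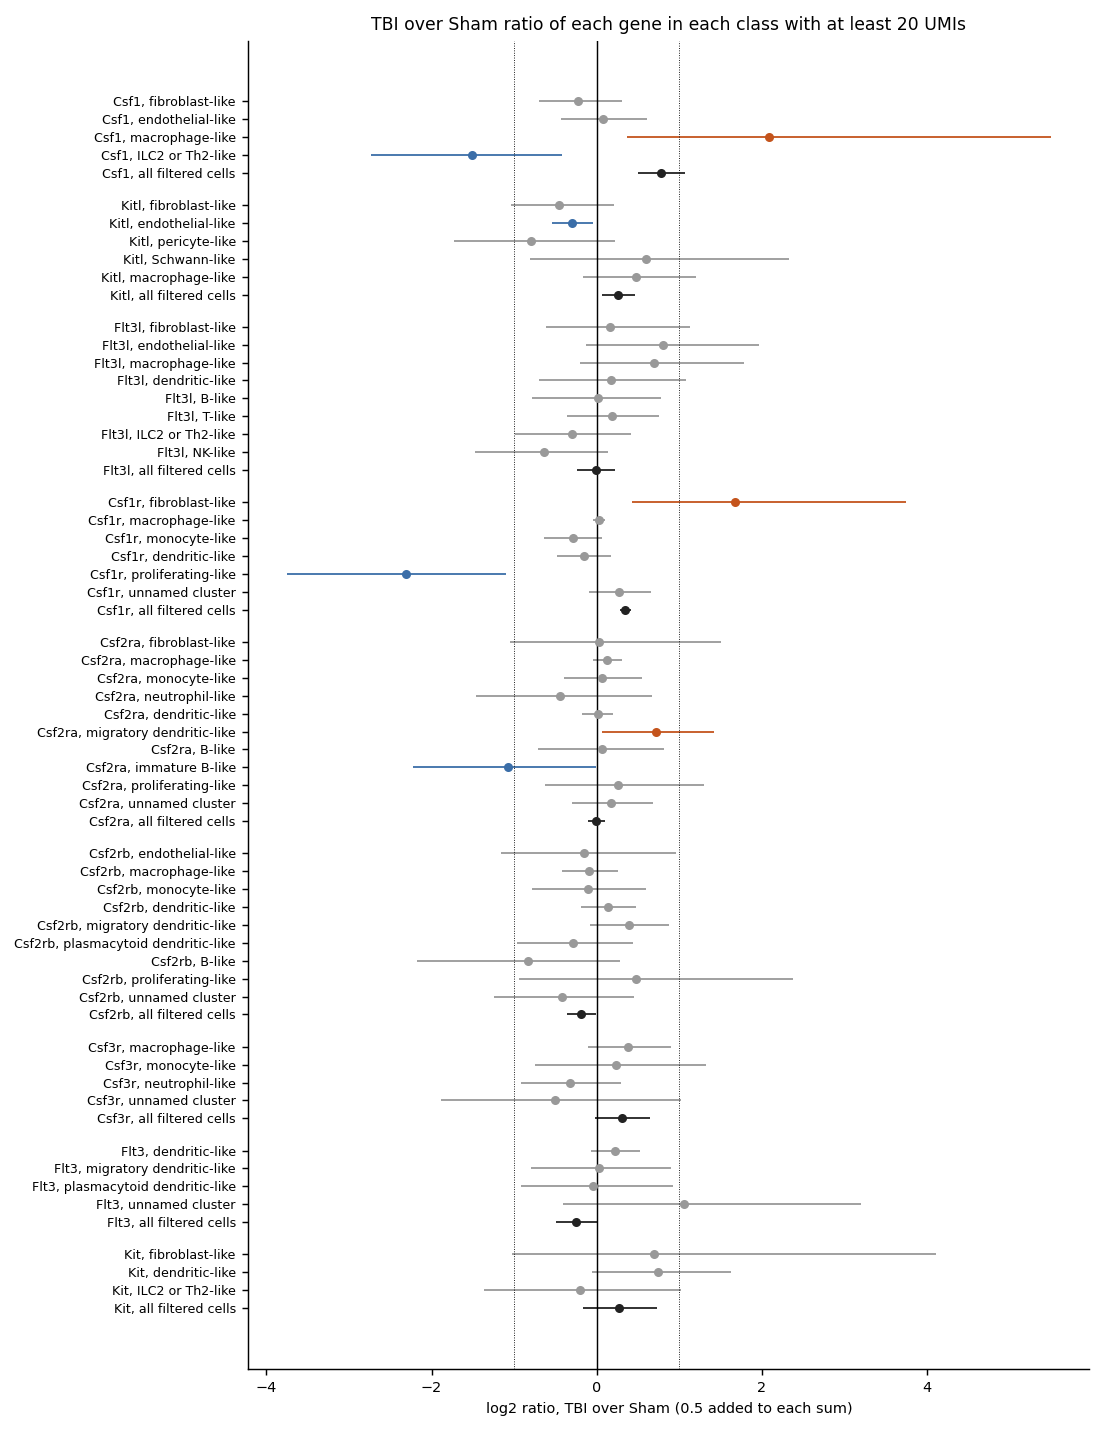
TBI over Sham log2 ratio (horizontal axis, 0.5 added to each sum) of each gene in every class where it had at least 20 UMIs, with exact 95% binomial intervals for counting error; dotted lines mark 2-fold, black points are all filtered cells, orange and blue points are classes whose interval lies above or below 0, and gray points those whose interval includes 0. Csf1r in choroid plexus-like cells is not drawn, since Sham had 0 UMIs there. The wide bars are classes with few UMIs, such as Csf1 in macrophage-like cells with 2 and 24.

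Levels over the whole library depend both on the level in each cluster and on the share of UMIs that each cluster holds, and the libraries differed in those shares. Csf1 went from 17.5 to 30.2 CPM over all filtered cells, a log2 ratio of 0.78 (0.50 to 1.07). With the Sham level of every cluster and the TBI shares of the clusters the log2 ratio would be 0.78, and with the TBI levels and the Sham shares 0.16. Without the highest fibroblast-like cell of each library these 3 values were 0.94, 0.61 and 0.32. Csf1r went from 359 to 457 CPM (0.35, 0.28 to 0.41), with 0.28 from the shares alone and 0.05 from the levels alone. For Kitl the measured 0.26 (0.06 to 0.46) stood beside 0.43 from the shares and -0.14 from the levels. Flt3 was lower by 0.25 on the log2 scale (-0.49 to -0.0011), with -0.56 from the shares and 0.25 from the levels, and Csf2rb was at -0.19 (-0.36 to -0.01), with -0.15 and 0.02. Flt3l and Csf2ra stood at -0.01 and -0.0039, and the intervals of Csf3r (0.31, -0.02 to 0.65) and Kit (0.27, -0.17 to 0.73) included 0. For Csf3r the shares alone gave 0.22 and the levels alone 0.09. For Kit they gave -0.17 and 0.58, in opposite directions. For Flt3l they gave -0.15 and 0.05, and for Csf2ra -0.08 and 0.08. Fewer cells of a type in a tissue and a poorer recovery of that type cannot be told apart here, and 604 Sham and 431 TBI barcodes had been left out for hemoglobin.

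**Figure D5:**
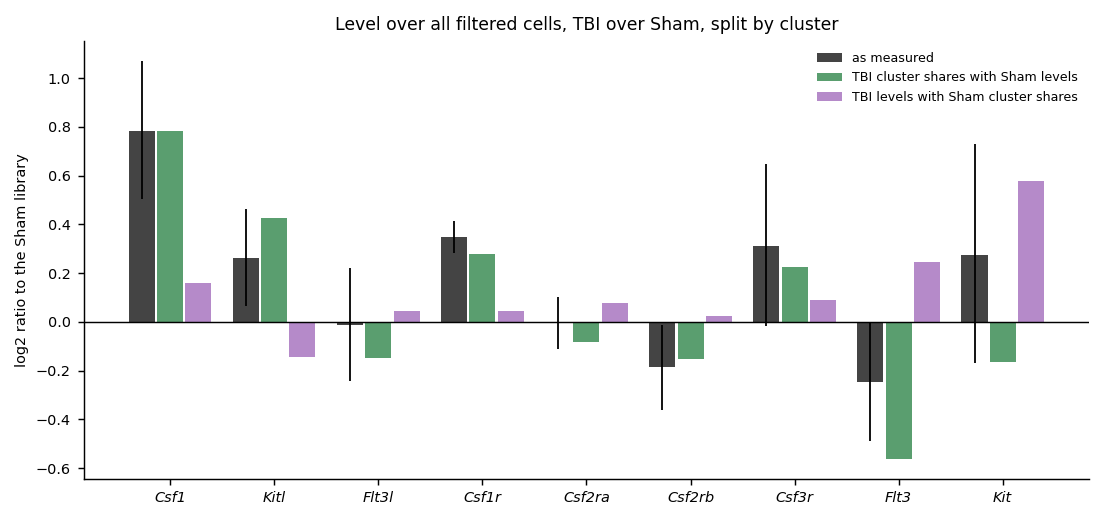
Log2 ratio of the TBI to the Sham library (vertical axis) for each gene over all filtered cells as measured (dark bars, with exact 95% binomial intervals), with only the cluster shares taken from TBI (green), and with only the cluster levels taken from TBI (purple). For Csf1 the measured ratio and that from the shares alone are both 0.78 and the levels alone give 0.16, while without the highest fibroblast-like cell of each library the 3 values are 0.94, 0.61 and 0.32.

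The companion genes of these pathways, 29 in number, filled in the other ligands and chains. Il34, the second ligand of CSF1R, was highest in pericyte-like cells, at 284 CPM (147 to 497; 12 UMIs) in Sham and 332 CPM (236 to 454; 39 UMIs) in TBI, then in Schwann-like cells at 152 and 140 CPM and in fibroblast-like cells at 32.0 and 36.0 CPM. Its level over all filtered cells went from 4.70 to 10.5 CPM, a log2 ratio of 1.14 (0.63 to 1.72), while within fibroblast-like and pericyte-like cells the Sham and TBI intervals overlapped. Csf2, which encodes GM-CSF, was found in lymphoid cells, with 13 and 27 UMIs in the deeper ILC2-or-Th2-like cluster (52.0 and 71.1 CPM) and 21 and 11 in T-like cells (44.2 CPM, 27.4 to 67.6, and 14.6 CPM, 7.26 to 26.0, log2 ratio -1.57, -2.80 to -0.49). Csf3, Il3 and Epo had 0 UMIs in both libraries, where the floor of 3 counts stands at 0.381 CPM in Sham and 0.215 CPM in TBI, and Il5 had 4 and 5. Il5ra lay almost only in B-like cells (10 and 16 UMIs) and Epor mainly in macrophage-like cells (20.9 and 19.3 CPM).

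Counted as above, 1 of the 19 measured companions differed 2-fold in macrophage-like cells (3.68% of all genes did), the feedback inhibitor Socs2 (1 and 19 UMIs). In fibroblast-like cells 3 of 16 did (8.09% of all genes): Il3ra was lower and Ptpn6 and Socs3 were higher in TBI, Socs3 with 0 Sham and 39 TBI UMIs. In dendritic-like cells 1 of 19 did (3.55%), the adaptor Gab2 (31 and 15 UMIs), and in endothelial-like cells 0 of 16 (4.27%). In T-like cells 2 of 15 did (5.09%), Csf2 as lower and the sheddase Adam17 as higher (5 and 21 UMIs), and over all filtered cells 1 of 23 (11.2%), Il34. With so few genes and no replicate, these counts too say nothing against the background. Socs2 was highest in migratory dendritic-like cells, at 635 and 560 CPM. B-like cells held the largest part of the Ptpn6 UMIs, at 884 and 904 CPM, and its fibroblast-like counts include predicted doublets.

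The genes whose levels followed each member most closely over the 21 classes and 2 libraries (42 points, Pearson r of log2(CPM + 10), 11703 genes compared) were, for Csf1r, Fcgr1 (0.96), Cx3cr1 (0.96) and Trem2 (0.95), and for Csf3r, Pilrb2 (0.96), Pilra (0.93) and Cd300lb (0.93). Kitl was followed by Cxcl12 (0.91), Dlc1 (0.90) and Adgra2 (0.90), and Flt3l by Gimap5 (0.84), Pglyrp2 (0.83) and Lax1 (0.83). Csf2rb was followed by Pirb (0.91), Slc2a6 (0.87) and Clec12a (0.87), Csf2ra by Spi1 (0.86), Pirb (0.85) and Plbd1 (0.85), and Flt3 by Ffar4 (0.85), Clec9a (0.83) and Csf2rb2 (0.83). No gene was above 0.74 for Csf1 or above 0.67 for Kit. The points share libraries and depth, and these values describe likeness of pattern only.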

How the data were processed

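Single-cell RNA was sequenced from 2 libraries, Sham and TBI, each a pool of 5 mice. The authors deposited UMI counts per gene and barcode made with Cell Ranger on mm10. The submitters' processing notes give version 2.1.1, the matrix headers 3.1.0, and the methods another, and no source used here names the annotation release. The deposited counts were whole numbers and carried no normalization, and no cell annotation was used.

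Cells with 150 to 5000 genes, at most 20% mitochondrial and at most 5% hemoglobin UMIs were kept. The 2699 Sham and 4349 TBI barcodes held 9527334 and 15011079 UMIs. Clustering used log values of counts scaled to a total of 10000, 2000 variable genes (without the 9 members), 20 principal components and a graph of 20 neighbours, cut with leidenalg 0.10.2 (resolution 0.8, seed 1) in scanpy 1.11.5. The unpruned form of the graph was chosen by how many cells received a name. A cluster was named from at least 3 fixed markers among its 50 leading genes. The classes were rebuilt here, so differences from the study may come from the names. The shallow cluster was kept apart by a limit on its median depth set after the data were seen. Doublets were predicted against simulated ones, left in, and removed as an alternative. Subclusters were drawn the same way within a class.

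UMIs were summed per class and library. Ratios had 0.5 added to each sum and an exact binomial interval (scipy 1.17.1), and a sum of 0 was compared through a floor of 3 counts. PCR copies are collapsed by the UMIs, and intervals cover counting error only. The ratio and its interval were run on simulated counts drawn from the Poisson model that the interval itself assumes. The simulation held no clumping of UMIs in single cells, so it checked the calculation only. Thinned shares are expected values over the cells of a class with at least 1000 UMIs, while the other shares cover all its cells. No test was run, because each group is 1 library. The named genes are the 9 members, the 29 companions and the 3 genes most like each member among genes with at least 100 UMIs. The members and lists were chosen with earlier results of these data known. Gene positions are from GENCODE vM21 and promoters from RefSeq (GRCm38.p6).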

Additional observations from a re-analysis of the deposited data

Results flagged for a closer look

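Results were listed here when the intervals of 1 gene lay on opposite sides of 0 in different classes with at least 20 UMIs. They were also listed when barcodes left out of every class held more than 3 UMIs of a gene. The difference between classes was not tested, since each condition is 1 library. Csf1 had a log2 ratio of TBI over Sham of 2.09 in macrophage-like cells (2 and 24 UMIs in Sham and TBI). It was -1.51 in the deeper ILC2-or-Th2-like cluster (21 and 11 UMIs). In classes with fewer than 20 UMIs, the log2 ratio of Csf1 was 2.54 (0.31 to 8.48) in monocyte-like cells (1 and 12 UMIs). The Sham UMI and 2, 1, 7 and 1 of those in TBI were in barcodes with genes shared by basophils and mast cells. In the shallow ILC2-or-Th2-like cluster, a mixture with most of its TBI Csf1 UMIs in 1 cell, the log2 ratio was 1.56 (0.12 to 3.30). For Csf1r it was 1.68 in fibroblast-like cells, at least 2.42 in choroid plexus-like cells and -2.30 in proliferating cells, and the first 2 classes kept 13 and 2 TBI UMIs once predicted doublets were left out. For Csf2ra it was 0.72 in migratory dendritic-like and -1.07 in immature B-like cells.

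Barcodes over the hemoglobin limit (604 in Sham with 1433149 UMIs, 431 in TBI with 803694 UMIs) held 56 and 24 Csf1r UMIs, 13 and 15 of Csf2ra, 7 and 5 of Kitl, and 4 and 6 of Csf2rb. In TBI they also held 4 of Flt3l and 6 of Kit, with 3 and 0 in Sham. Csf1r there was at 39.1 and 29.9 CPM, against 359 and 457 CPM in the filtered cells.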

How the results depend on the processing

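No paired analysis was possible because each condition is 1 library. For the ratio of TBI over Sham of each member in its main class, 95 of 99 alternatives stayed within the counting interval. That interval is wide where UMIs are few. The main class was fibroblast-like for Csf1, endothelial-like for Kitl, T-like for Flt3l and macrophage-like for Csf1r and Csf2ra. It was dendritic-like for Csf2rb and Flt3, neutrophil-like for Csf3r and all filtered cells for Kit. Macrophage-like cells held more UMIs of Csf2rb and Csf3r than these classes. For Kit, regrouping the same cells could not change the ratio. Csf1 in fibroblast-like cells (-0.22) moved to -0.79 at a clustering resolution of 1.6, where several clusters with fibroblast genes had no name, to 0.65 as a mean over cells, and to 0.39 without the cell with most UMIs, an alternative chosen after seeing the data. Over all filtered cells the same step, also chosen after seeing the data, took Csf1 from 0.78 to 0.94, its shares alone from 0.78 to 0.61 and its levels alone from 0.16 to 0.32. Csf1r in macrophage-like cells moved to 0.17 as a mean over cells. The class with most UMIs kept its share in 50 of 54 alternatives. At resolution 1.6 endothelial-like cells led Csf1, and the cells still named fibroblast-like held 21.8% of it. Dendritic-like cells held 64.4% of Flt3 at that resolution and 63.5% with no hemoglobin limit. Macrophage-like cells held 89.2% of Csf1r without predicted doublets. The causes of these moves were not tested. The percent of genes past 2-fold in fibroblast-like, endothelial-like, macrophage-like, dendritic-like and T-like cells and in all filtered cells was 1.66, 0.787, 0.652, 0.759, 0.874 and 7.37 among genes with at least 100 UMIs, and 27.1, 20.2, 19.8, 24.6, 22.4 and 20.7 among genes with at least 1 UMI, where counting error is larger. With 1.5-fold in place of 2-fold it was 23.5, 16.8, 12.7, 14.5, 18.4 and 22.7. Depth limits all ratios that rest on a few UMIs.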
